A study of Mus musculus with 19 samples.

Results

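Fat takes up glucose under the control of insulin, and the pancreatic lymph nodes (PLNs) drain the organ that autoimmunity attacks in NOD mice. The comparison reported here asked which genes, and which groups of genes, changed with new onset diabetes in a different way in these tissues. It rests on 10 of the 19 arrays of the series, taken by their labels: fat of normoglycemic mice (Fat NOR, 2 arrays), fat of new onset diabetic mice (Fat DIA, 2 arrays), PLNs of normoglycemic mice (PLN NOR, 4 arrays) and PLNs of new onset diabetic mice (PLN DIA, 2 arrays). All mice were female NOD (NOD/LtJx), a strain in which diabetes arises spontaneously, kept on a standard diet. The labels attach a streptozotocin protocol to every array, but it describes mice that had been made euglycemic by an anti-TNF-α antibody, which are none of these groups. For the fat that was dissected for RNA the study's methods name epididymal white adipose tissue, a depot of males, while the labels of these arrays call the mice female, so the depot remains uncertain. The labels give no ages and do not say that each array stands for its own animal, so p-values reflect only the variation among these arrays, which may be technical. Arrays of mice treated with alpha1 antitrypsin (AAT) or with the Power Mix regimen (PM) entered only the estimate of that spread.

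Each array gave 1 signal (intensity) for each of 45037 probe sets, called transcripts here, of which 34945 name a single gene and together cover 18193 genes. The quantity tested was the change from NOR to DIA in fat minus the change from NOR to DIA in PLNs, on the log2 scale. A positive difference thus marks a transcript whose change with diabetes was more positive, or less negative, in fat than in PLNs. It does not say in which diabetic tissue the signal was higher. The median transcript moved by −0.11 in fat, by −0.11 in PLNs and by 0.10 in the difference. Changes and differences are therefore printed relative to these medians (for gene lists, relative to the median gene), and a printed difference is slightly smaller than the printed fat change minus the printed PLN change. The median standard error (SE) was 1.04 for the change in fat, 0.90 for the change in PLNs and 1.38 for their difference, a precision set by the number of arrays. Transcripts are called at an adjusted p under 0.05, from limma with Benjamini-Hochberg adjustment over all transcripts.

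In adipocytes, insulin drives glucose uptake through the transporter Glut4 (gene Slc2a4), promotes the making and storing of triglyceride and restrains its release. Fat also holds vessels, fibroblasts and macrophages, whose number and state are known to shift in diabetes. A lymph node is built of B cell follicles, where germinal centres can form, T cell zones, a stromal and vascular scaffold and macrophages, and in NOD mice the PLNs are where T cells first meet beta cell antigens.

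The arrays carried the markers of their labels. The median log2 signal of 15 measured adipocyte identity genes was 13.10 to 13.80 on the fat arrays and 6.13 to 8.10 on the PLN arrays. For 19 B cell markers it was 10.64 to 11.06 in PLNs and 6.84 to 8.75 in fat, and for 18 T cell markers 10.44 to 11.73 in PLNs and 6.56 to 7.30 in fat. PLN DIA array 1 stood apart: its log2 signals correlated at 0.639 to 0.715 (Pearson, across transcripts) with those of the other PLN arrays, which include PLN DIA array 2, against 0.774 to 0.890 among the PLN NOR arrays and 0.866 between the Fat DIA arrays. Results without it are therefore given where they matter.

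Controls of RNA quality moved with diabetes in fat, and 1 of them, Gapdh, also in PLNs. The ratio of the 3′ to the 5′ actin control signal, which is high where RNA is degraded or copied incompletely, was 3.62 and 4.30 on the Fat NOR arrays and 15.2 and 15.5 on the Fat DIA arrays. In PLNs it was 0.940 to 2.31 with NOR and 0.881 and 1.10 with DIA. The Gapdh ratio was 0.910 and 0.946 in Fat NOR, 2.46 and 4.63 in Fat DIA, 5.55 to 8.01 in PLN NOR and 10.8 and 10.02 in PLN DIA. Both controls thus separated Fat DIA from Fat NOR without overlap, and the Gapdh ratio also separated PLN DIA from PLN NOR. Their part in the changes and differences below was not tested beyond fits that hold each ratio as a covariate. Among these arrays a high actin ratio went together with Fat DIA, so the fit with it can hardly tell the ratio from diabetes in fat. In that fit the median SE of the difference was 2.36, against 1.38 without a covariate, and small values of either sign are within it.

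**Figure D1:**
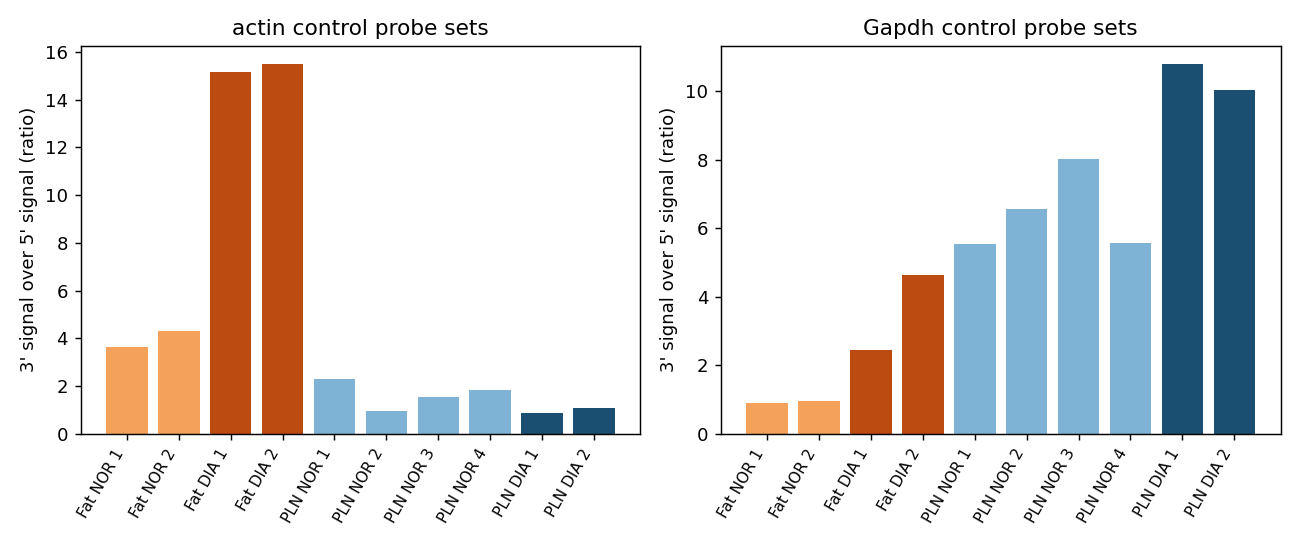
Ratio of the 3′ to the 5′ control signal on each of the 10 arrays for actin (left) and Gapdh (right), 1 bar per array, coloured by group. The actin ratio of both Fat DIA arrays (15.2 and 15.5) is above that of every other array shown, and the Gapdh ratio is highest on the PLN DIA arrays.

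Only 2 transcripts were called different between the tissues, both with a positive difference (0.00444% of 45037), and 0 with a negative one (0%). At an unadjusted p under 0.05 there were 3997. In the same fit 239 transcripts were called in PLNs alone, 21 higher with DIA (0.0466%) and 218 lower (0.484%), and 0 were called in fat alone (0%, with 2456 at an unadjusted p under 0.05 and a smallest adjusted p of 0.0616). The count of positive calls turned on single arrays: it was 310 without PLN DIA array 2, 18 without PLN DIA array 1, 25 without Fat NOR array 2 and 0 without any 1 of the other 7 arrays.

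At the thresholds of the study, a difference over 2-fold with an unadjusted p of at most 0.05, 2543 transcripts had a positive difference (5.65%) and 1454 a negative one (3.23%). Among the positive ones, 42.2% moved over 2-fold in PLNs alone, 34.1% moved over 2-fold in opposite directions in the tissues and 19.5% moved over 2-fold in fat alone. Negative differences were divided more evenly, with 23.9% in PLNs alone, 36.5% in opposite directions and 30.1% in fat alone. Over all transcripts these shares were 24.3%, 5.88% and 17.4%. As the same values chose the transcripts, the shares are a description. Low signals were frequent on the lower side: in 36.1% of the positive transcripts the PLN DIA mean, and in 32.9% of the negative ones the Fat DIA mean, lay under 57.9, the 20th percentile of all signals, against 24.0% and 21.6% of all transcripts.

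The measured changes of the tissues had a Pearson correlation of 0.001 over 18193 genes and of −0.049 over the 9279 genes with higher signals. These values are a description because genes on an array share its RNA and scaling. The median SE was 1.04 in fat and 0.90 in PLNs, and such noise lowers the size of a correlation. The values therefore cannot show whether the responses of the tissues are related. The transcripts called in PLNs were followed in fat as a description, since both contrasts share 1 estimate of the spread, and leaving out 1 fat array lowered the PLN calls from 239 to between 139 and 164. Of the 218 transcripts that fell in PLNs, 112 were above and 106 below the median change in fat, and 5.96% had an unadjusted p under 0.05 there, against 5.45% of all transcripts. Of the 21 that rose in PLNs, 11 were above and 10 below, and 3 had an unadjusted p under 0.05 in fat. For the transcripts that fell in PLNs the share with a low p in fat was thus close to the background.

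**Figure D2:**
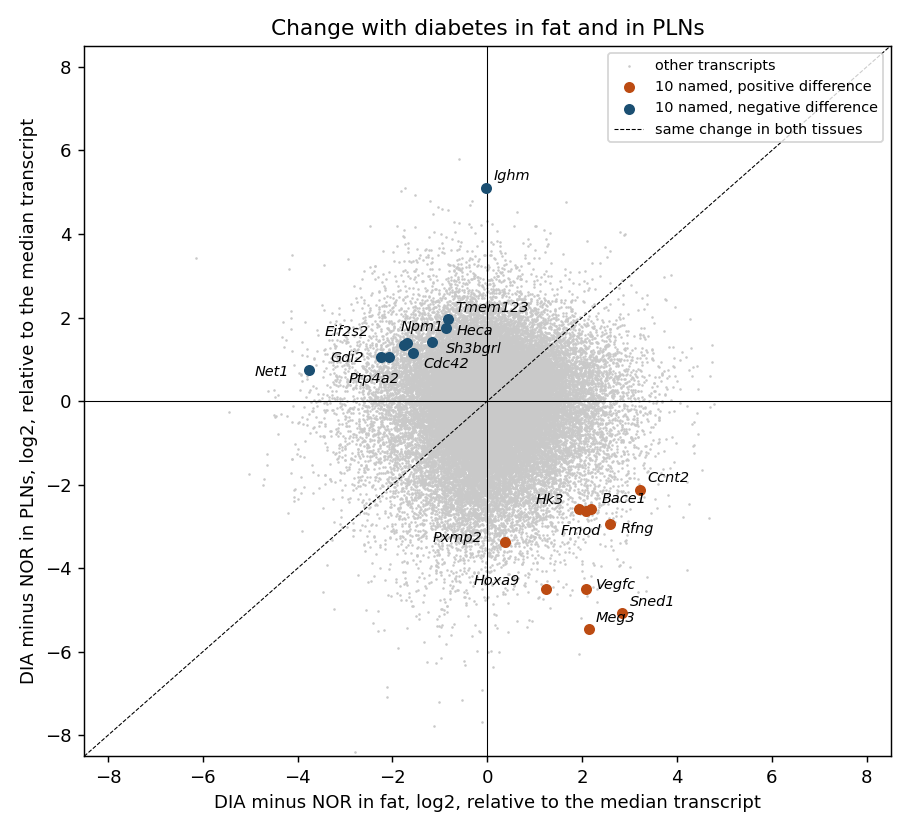
Change from NOR to DIA in fat (horizontal) and in PLNs (vertical) for each transcript, in log2 units relative to the median transcript, with the 10 named genes of each direction of the difference in colour. Transcripts on the dashed line changed alike. The named genes lie in the lower right, from Pxmp2 (0.38 in fat, −3.38 in PLNs) to Ccnt2 (3.22 and −2.12), and in the upper left, with Ighm at 5.11 in PLNs and Net1 at −3.76 in fat.

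Hoxa9, a homeobox transcription factor of axial patterning and blood cell progenitors, was called with a difference of 5.63 (SE 0.88, adjusted p = 0.0393). Its signal was 1081 and 1207 on the Fat NOR arrays, 2282 and 2711 on the Fat DIA arrays, 525.5, 337.9, 249.1 and 501.8 on the PLN NOR arrays, and 17.0 and 14.8 on the PLN DIA arrays. The groups did not overlap in either tissue, and both PLN DIA signals lay under the 20th percentile of all signals. Hoxa9 fell in PLNs (−4.49, adjusted p = 0.00183), while its change in fat was 1.23 (unadjusted p = 0.105). With signals floored at the 20th percentile the difference was 4.14 and the call was lost.

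Rfng, a glycosyltransferase of the Fringe family that modifies Notch receptors, was the other called gene, with a difference of 5.44 (SE 0.88, adjusted p = 0.0393). Its signal was 136.1 and 715.8 in Fat NOR and 1507 and 2003 in Fat DIA. In PLN NOR it was 290.7, 693.4, 524.3 and 546.0, and in PLN DIA 52.0 and 66.4. Diabetic fat was above normal fat and diabetic PLNs were below normal PLNs without overlap, with a change of 2.58 in fat (unadjusted p = 0.00104) and of −2.95 in PLNs (adjusted p = 0.0146). Over the 24 other settings the difference ranged from 4.14 to 5.88 for Hoxa9, called in 13 of them, and from 4.13 to 6.81 for Rfng, called in 10. A further probe set of each gene gave a smaller difference of the same sign, 0.54 for Hoxa9 and 0.92 for Rfng, so each call stands on 1 probe set.

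The other 8 genes named for a positive difference missed the threshold. In the PLN contrast alone all of them had negative changes, which passed the test except for Ccnt2 (−2.12, adjusted p = 0.152). Over all 10 genes, 8 had Fat DIA signals above Fat NOR and PLN DIA signals below PLN NOR without overlap, a pattern seen in 2.75% of all transcripts (18% had the fat part of it and 14.1% the PLN part), and since the genes were picked by the same values this is a description. The largest difference was that of Sned1, which encodes a secreted matrix protein (7.83, SE 1.37, adjusted p = 0.0587). Its signal was 77.3 and 107 in Fat NOR and 498.7 and 736.6 in Fat DIA, and it stood at 436.1 to 706.1 in PLN NOR and 20.9 and 11.2 in PLN DIA. Meg3, a long noncoding RNA of an imprinted locus, differed by 7.501 (SE 1.29, adjusted p = 0.0587), with 404.5 and 492.9 in Fat NOR, 1657 and 1997 in Fat DIA, 294.8 to 767.0 in PLN NOR, and 24.1 and 4.38 in PLN DIA. In both genes the PLN DIA signals lay under the 20th percentile of all signals, and the PLN change was larger in size than the fat change.

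Matrix and vessel genes were among the rest. Fmod, a small proteoglycan that binds collagen, had signals of 416.9 and 307.9 in Fat NOR, 1288 and 1529 in Fat DIA, 2605 to 3968 in PLN NOR, and 172.7 and 1296 in PLN DIA, a difference of 4.62 (SE 0.88, adjusted p = 0.105). It was 2.94 without PLN DIA array 1 and 6.401 without PLN DIA array 2, and all 5 other probe sets of Fmod were positive, from 0.66 to 3.97. Vegfc, the main growth factor of lymphatic vessels, differed by 6.47 (SE 1.30, adjusted p = 0.154): it fell in PLNs from 591.9 to 1082 with NOR to 31.5 and 35.6 with DIA, whereas Fat NOR (17.8 and 572.3) and Fat DIA (521.0 and 297.3) overlapped. Its difference was 3.86 without Fat NOR array 1 and 9.14 without Fat NOR array 2.

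Bace1, a protease known for cleaving the amyloid precursor, differed by 4.67, Pxmp2, a peroxisomal membrane channel, by 3.67, and Hk3, a hexokinase of myeloid cells, by 4.44. Ccnt2, a cyclin of the kinase that releases paused RNA polymerase, differed by 5.25, with 28.7 and 100 in Fat NOR, 486.8 and 443.9 in Fat DIA, 1173 to 2074 in PLN NOR, and 91.5 and 1101 in PLN DIA, which spread widely. Of 27 other probe sets that represent these 10 genes, 21 had a positive difference. Those of Hk3 (−0.29) and some of Meg3 (down to −1.31), Bace1 (−2.11) and Ccnt2 (−1.96) did not. The count of signs hides smaller sizes. Other probe sets of Vegfc gave 0.89 and 0.83, and the 10 others of Meg3 reached at most 2.36. The brightest Meg3 probe set had a PLN change of −0.09, and the brightest of Bace1 a difference of 0.04. The sizes printed for Vegfc and Meg3 thus stand on 1 probe set each.

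None of the 10 genes named for a negative difference was called, with adjusted p from 0.154 to 0.187. In 8 of the 10, Fat DIA lay below Fat NOR and PLN DIA above PLN NOR without overlap, against 2.12% of all transcripts. In 9 of the 10 PLN DIA lay above PLN NOR (8.99% of all transcripts) and in 9 Fat DIA lay below Fat NOR (23.2%). Since the genes were picked by the same values, these counts are a description and lend the genes no support. Net1, an exchange factor that activates RhoA, had the largest fat component: signals of 10290 and 5416 in Fat NOR, 972.7 and 269.6 in Fat DIA, 336.6 to 395.1 in PLN NOR, and 470.1 and 655.4 in PLN DIA, a difference of −4.58 (SE 0.91, adjusted p = 0.154). Eif2s2, a subunit of the initiation factor that brings the first tRNA to the ribosome, went from 7594 and 6070 to 1774 and 1941 in fat and from 912.5 to 2397 up to 3968 and 3323 in PLNs, a difference of −3.20 (SE 0.64). The nucleolar chaperone Npm1, which takes part in ribosome assembly, went from 8580 and 5533 to 3030 and 1308 in fat and from 19310 to 24050 up to 57210 and 50640 in PLNs, a difference of −3.16 (SE 0.65). At these probe sets of both genes the arrays of the 2 states were fully apart in each tissue. The brightest probe set of Eif2s2 gave 0.06 in fat and 1.345 in PLNs, a difference of −1.37. The other probe set of Npm1, about as bright, gave −1.18 in fat and −0.91 in PLNs, so its PLN direction was the opposite and its difference −0.36.

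Ighm, the immunoglobulin heavy chain of IgM, differed by −5.23 by its probe set with the smallest p (SE 1.13, adjusted p = 0.180). It rose in PLNs from 363.2 to 611.9 with NOR to 9275 and 21800 with DIA (adjusted p = 0.00427), and its fat arrays overlapped (1222 and 582.4 with NOR, 851.5 and 692.7 with DIA). The probe set of Ighm with the highest mean went the other way, with a difference of 2.10 (SE 1.59), −0.48 without Fat NOR array 1 and −0.01 without Fat DIA array 2, so the 11 probe sets of this gene, which may share sequence with other immunoglobulin genes, do not give 1 direction.

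Tmem123, a cell surface mucin-like protein, rose in PLNs from 1438 to 4458 with NOR to 11000 and 10520 with DIA (1.97, adjusted p = 0.0310), and its difference was −2.89 (SE 0.60). The phosphatase Ptp4a2 differed by −3.21, Gdi2, which recycles Rab proteins, by −3.38, Cdc42, a GTPase of cell polarity, by −2.81, Heca by −2.72 and Sh3bgrl by −2.68. Of 31 other probe sets of the 10 genes, 25 had a negative difference. That of Heca (0.26), single ones of Eif2s2 (1.201) and Cdc42 (0.17) and 3 of Ighm (up to 2.65) did not. The count of signs hides smaller sizes. Other probe sets of Cdc42 gave 0.17, −0.16 and −0.11, and those of Ptp4a2 −0.43, −0.62 and −2.89. The 5 others of Gdi2, all brighter than the named one, gave −2.01 to −0.06. The named probe sets of all 20 genes of both directions kept their sign under every setting run. As they were chosen by p on the same arrays, this is a description and does not cover the other probe sets.

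**Figure D3:**
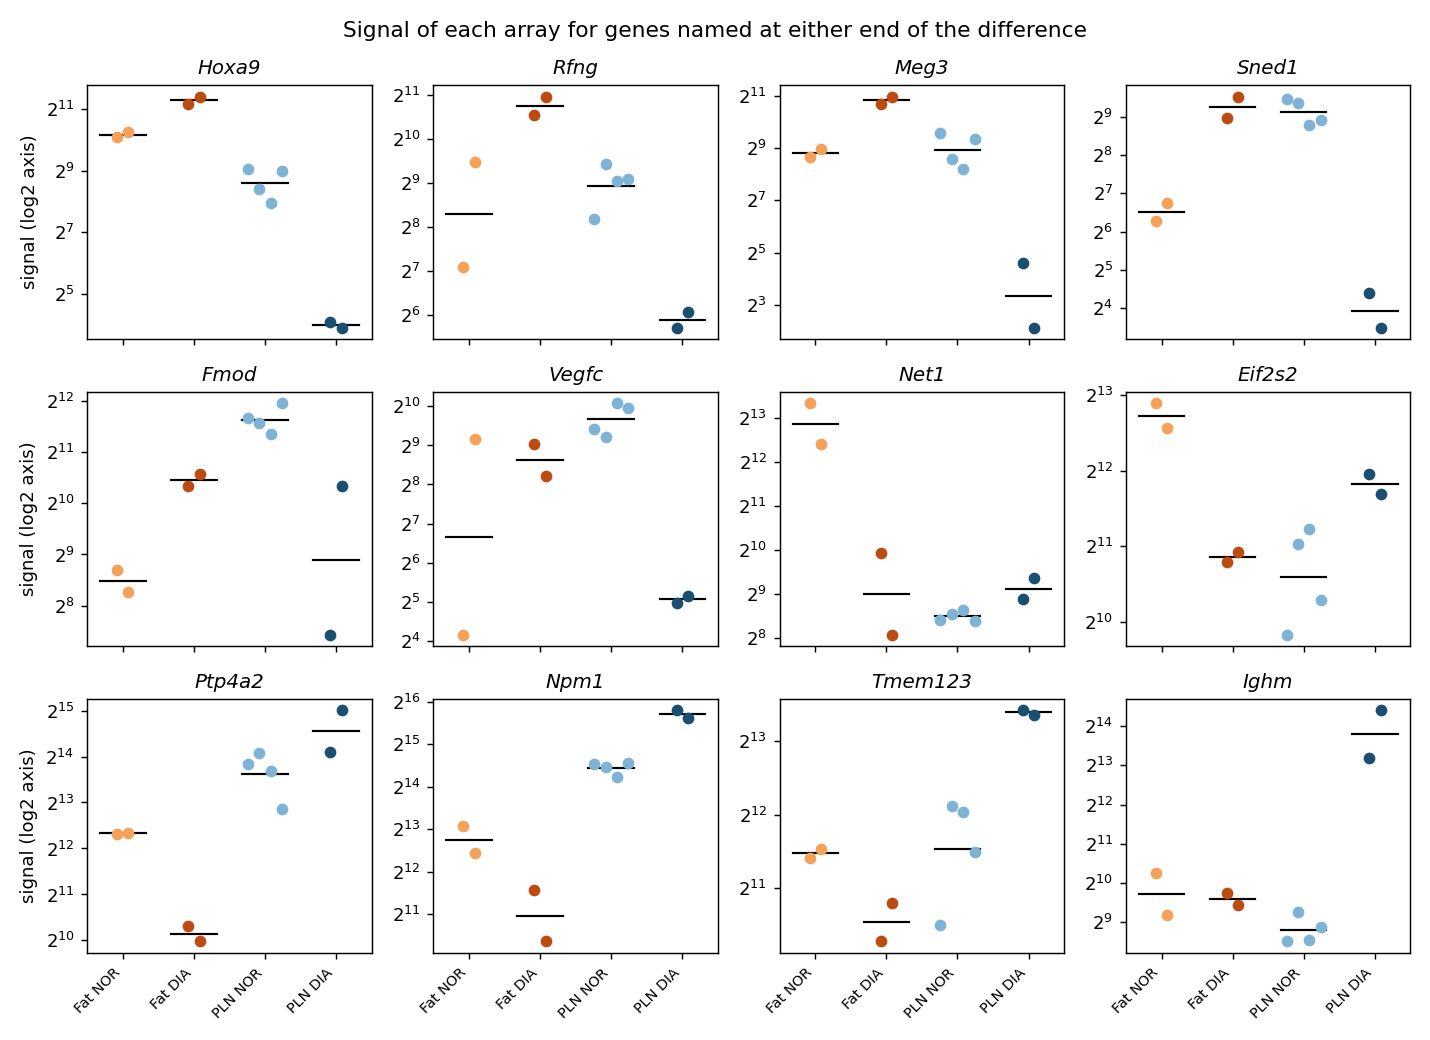
Signal of each array (points, log2 axis) with the mean of the log2 signals (bar) in Fat NOR, Fat DIA, PLN NOR and PLN DIA for 6 genes named for a positive difference (Hoxa9 to Vegfc) and 6 for a negative one (Net1 to Ighm). In Hoxa9, Meg3 and Sned1 both PLN DIA arrays lie below all other arrays, and at the Npm1 probe set shown the states are apart in both tissues in opposite directions (−1.69 in fat, 1.38 in PLNs).

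Of the members of the 57 gene lists examined, 0 were called different between the tissues (limma, adjusted p under 0.05), and lists are described by the median over their members and by how many lie above or below the median gene. Over all 18193 genes, 6.10% had a positive and 2.52% a negative difference at an unadjusted p under 0.05, and 25.4% were above the median in fat and below it in PLNs, with as many the other way round. In bulk tissue, fewer cells of a type and less RNA per cell cannot be told apart. Members named below are taken from those with the smallest p of their list or are genes the study names. Not every gene so chosen is named, and the choice among them followed no test. Jak3 and Tnfrsf17 are given below but are not in the counts of named genes and probe sets. The values of the named members are a description. With the actin ratio as a covariate (median SE over all transcripts 2.36) the differences of 16 of them changed sign, and these are Insig1, Gpat3, Echs1, Txnip, Foxo1, Insr, Per2, Rpl11, Rpl7, Clk1, Clk4, Ikbkb, Vegfa, Nlrc5, Pax5 and Tek. Of the 76 genes named from lists, 43 have further probe sets, and in 23 of these at least 1 had a difference of the opposite sign. They are Acly, Clk4, Csf1r, Cyp51, Deptor, Foxo1, Gcsam, Ifi35, Ikbkb, Il2rb, Insr, Lpin1, Map3k14, Pax5, Pck1, Per2, Per3, Ptn, Rpsa, Scd2, Slc4a1, Srsf10 and Tap1. Here too signs hide smaller sizes. Other probe sets gave 0.10 and 0.295 for Pdgfra, −0.35 for Tbc1d4 and 0.73 for Vegfa. Those of Tgfbi ranged from 0.74 to 2.94, and those of Vegfd from 2.50 to 3.66.

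**Figure D4:**
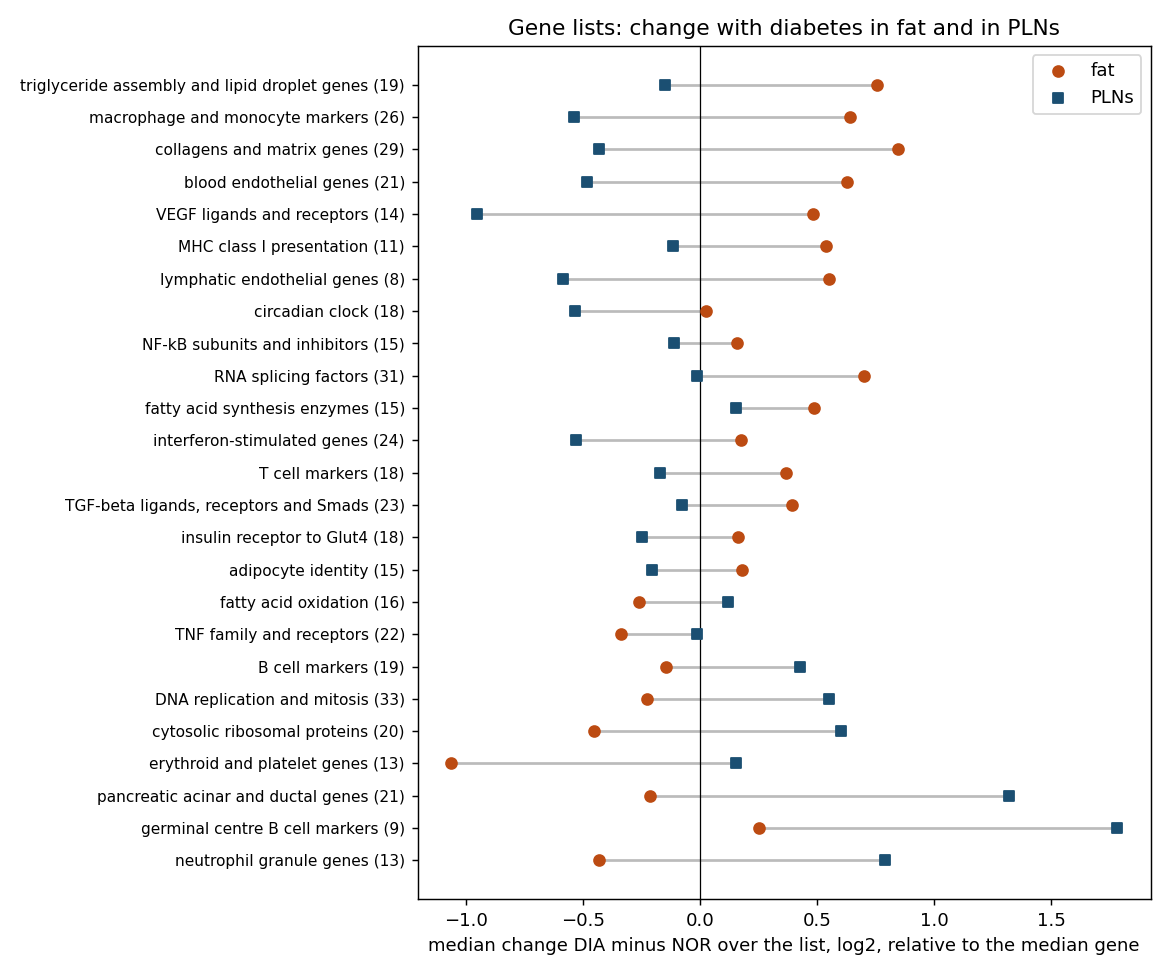
Median change from NOR to DIA over the measured members (number in brackets) of 25 gene lists, in fat (circles) and in PLNs (squares), in log2 units relative to the median gene. Lists are ordered by the median of their differences, from triglyceride genes (0.76 in fat, −0.15 in PLNs) to neutrophil granule genes (−0.43 and 0.79).

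Among metabolic genes, those that build and store triglyceride stood apart most. Of 19 measured members, 15 had a positive difference (median 1.503; 0.76 in fat and −0.15 in PLNs), and 4 had an unadjusted p under 0.05. Agpat2, an acyltransferase of triglyceride synthesis, went from 2884 and 2119 to 7501 and 10560 in fat and from 219.8 to 255.0 down to 75.0 and 164 in PLNs, a difference of 2.82 (SE 0.78). Gpat3, which adds the first acyl chain to glycerol phosphate, differed by 3.72 (SE 1.12), and Lpin1, a phosphatase of the same route, by 2.40 (SE 0.86), but by −2.35 at its other probe set. The list median stayed positive under all 17 settings, but was 0.81 without Fat DIA array 2 and 0.07 with the actin ratio as a covariate.

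Fatty acid synthesis enzymes had a positive difference in 10 of 15 members (median 0.60; 0.49 in fat and 0.15 in PLNs). That median was 0.22 without PLN DIA array 1, 1.32 without PLN DIA array 2 and 0.10 with the Gapdh covariate. Acly, which makes acetyl-CoA from citrate, had signals of 4414 and 3151 in Fat NOR and 13870 and 17250 in Fat DIA, against 5235 to 11320 in PLN NOR and 2420 and 7706 in PLN DIA, which overlap. Its difference was 2.92 (SE 0.76) and that of Acss2, the synthetase that uses acetate for the same purpose, 2.45 (SE 0.79). The difference was 2.18 (SE 0.89) for the desaturase Scd2. Insig1, which retains the sterol sensor in the endoplasmic reticulum, differed by 2.33, Pgd, an NADPH-forming enzyme of the pentose phosphate pathway, by 1.86, and Cyp51, of cholesterol synthesis, by 2.36. Lipogenic transcription regulators had 6 of 12, NADPH enzymes 5 of 13 and cholesterol genes 12 of 19 members above the median gene.

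The insulin pathway itself was split. Of 18 measured genes from the insulin receptor to Glut4, 9 were above and 9 below the median gene (median 0.21, and −0.11 over members with a mean signal above the 40th percentile). Insr, the receptor, had 1233 and 2324 in Fat NOR, 3769 and 3242 in Fat DIA, 527.7 to 746.0 in PLN NOR, and 157.6 and 255.9 in PLN DIA, a difference of 2.69 (SE 0.82). Slc2a4 differed by 2.96 (SE 1.22), and Tbc1d4, which holds Glut4 inside the cell until insulin acts, by −2.27 (SE 0.84). Deptor, an inhibitor of the kinase mTOR, fell in PLNs (−2.52, adjusted p = 0.0191) and differed by 3.49 (SE 0.78).

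Genes of fasting and fuel burning showed smaller medians. Fatty acid oxidation genes had a negative difference in 11 of 16 members (median −0.35, and −0.04 without PLN DIA array 2), including Echs1 (−2.72, SE 1.00) and Eci1 (−2.11, SE 0.83), enzymes of mitochondrial beta-oxidation. Txnip, which glucose induces, differed by −1.97 (SE 0.76), the insulin-restrained transcription factor Foxo1 by 1.32 (SE 0.59) and Pck1, a key enzyme of gluconeogenesis and glyceroneogenesis, by −1.12 (SE 0.81). Adipocyte identity genes had a median of −0.10 with 7 of 15 above, and oxidative phosphorylation subunits −0.06 with 14 of 32 above. Circadian clock genes were higher in the difference in 13 of 18 members (median 0.73), with the repressors Per2 at 3.15 (SE 1.15), Per3 at 2.29 (SE 0.93) and Bhlhe40 at 2.92 (SE 1.23). The clock median was 0.24 without PLN DIA array 1 and 0.27 and 0.28 with the actin and Gapdh covariates. In PLNs 13 of the 18 clock genes were below the median gene, and in fat 9. The sources used here do not state the hour at which tissue was taken.

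Stromal and vascular genes formed the next group. Of 29 measured collagen and matrix genes, 27 had a positive difference (median 1.23; 0.84 in fat and −0.43 in PLNs), 18 were above the median gene in fat and below it in PLNs, and 5 had an unadjusted p under 0.05. Fap, a protease of activated fibroblasts, went from 144.8 and 502.3 to 1109 and 996.9 in fat and from 287.9 to 812.2 down to 147.2 and 269.8 in PLNs (3.22, SE 1.00). Col6a1, a collagen that surrounds adipocytes, differed by 2.59 (SE 0.84) and Pdgfra, a receptor of fibroblast and adipocyte progenitors, by 2.06 (SE 0.78). The matrix median stayed positive under all 17 settings, from 0.60 without Fat DIA array 2 to 1.79 without Fat DIA array 1.

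TGF-β ligands, receptors and Smads were less uniform, with 16 of 23 above the median gene and a median of 0.22 that became −0.28 without Fat NOR array 1 and −0.58 with the actin covariate. Tgfbi, a matrix protein that TGF-β induces, had the smallest p of that list, with 1472 and 1454 in Fat NOR, 5692 and 7295 in Fat DIA, 2204 to 3339 in PLN NOR, and 2751 and 1869 in PLN DIA, a difference of 2.29 (SE 0.52), with a change of 2.25 in fat and −0.13 in PLNs. Tgfb2, a ligand, differed by 3.23 (SE 1.29). Ptn, a growth factor of nerve and vessel, fell in PLNs (−5.53, adjusted p = 0.00671) from 414.8 to 1344 with NOR to 4.50 and 70.6 with DIA, while its fat arrays overlapped, and it differed by 5.87 (SE 1.42).

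Blood endothelial genes had a positive difference in 19 of 21 members (median 0.97), but 1 array decided the value: the median was −0.41 without Fat NOR array 1 and 2.82 without Fat NOR array 2, and −0.70 with the actin covariate. The receptors Aplnr (6.67, SE 2.03), Tek (3.58, SE 1.33) and Kdr (2.28, SE 1.35) had a wide spread within Fat NOR, where the arrays gave Aplnr 212.3 and 5724, Tek 290.0 and 1803 and Kdr 719.2 and 5306. In PLNs 15 of the 21 genes were below the median gene with DIA. VEGF ligands and receptors had a median of 0.91 with 11 of 14 above (−0.13 with the actin covariate), of which 12 were below the median gene in PLNs. Vegfd, a lymphatic growth factor, differed by 3.05 (SE 0.88) and Vegfa, the main growth factor of blood vessels, by 2.34 (SE 0.88). Lymphatic endothelial genes had 7 of 8 above (median 0.81, and 0.21 without PLN DIA array 2), with Lyve1, a hyaluronan receptor of lymphatic vessels, at 2.70 (SE 1.00).

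Macrophage and monocyte markers had a positive difference in 20 of 26 members (median 1.25; 0.64 in fat and −0.54 in PLNs), and 7 had an unadjusted p under 0.05. The complement subunit C1qb had signals of 765.7 and 1359 in Fat NOR, 2896 and 7560 in Fat DIA, 8104 to 11920 in PLN NOR, and 4819 and 7919 in PLN DIA, a difference of 2.72 (SE 0.60) with the same sign at its other probe sets (2.09 and 1.36). Mpeg1, a pore-forming protein of macrophages, differed by 2.51 (SE 0.63), and Csf1r, the receptor that macrophages need to survive, by 2.62 (SE 0.67), with 2.57 and −1.59 at its other probe sets. C1qb and Mpeg1 were apart without overlap in both tissues, in opposite directions, while Csf1r overlapped in PLNs. Clec10a, a lectin of tissue macrophages and dendritic cells, went from 407.2 and 540.0 to 3376 and 3190 in fat, a difference of 4.24 (SE 1.13). The summed signal of the list was 14770 and 15840 in Fat NOR and 29480 and 45770 in Fat DIA. In PLNs the sum went the other way from the median, from 117400 to 160800 with NOR to 178700 and 189400 with DIA. The list median stayed positive under all 17 settings, between 0.57 and 2.00, and was 0.76 without PLN DIA array 1.

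Interferon-stimulated genes had a positive difference in 19 of 24 members (median 0.58, and 0.22 without PLN NOR array 2), and 19 were below the median gene in PLNs. Ifit3, which binds viral RNA complexes, went from 357.6 to 1687 with NOR to 81.7 and 259.1 with DIA in PLNs and from 536.5 and 486.3 to 663.6 and 940.4 in fat, a difference of 2.86 (SE 1.00). Oas2, a sensor of double-stranded RNA, differed by 3.44 (SE 1.21) and Ifi35 by 1.68 (SE 0.66). MHC class I presentation genes had 7 of 11 above (median 0.90), with the peptide transporter subunits Tap1 at 2.37 (SE 0.93; −2.91 to 2.69 at its other probe sets) and Tap2 at 3.35 (SE 1.23) and their regulator Nlrc5 at 1.58 (SE 0.74), but the median was −0.24 without PLN DIA array 1 and −0.34 with the Gapdh covariate.

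Promoter stretches of an interferon-stimulated and a macrophage gene are shown because most members of both lists (19 of 24 and 20 of 26) lay on the positive side of the difference. They lie upstream of the transcription start in RefSeq (GRCm38.p6), and capitals mark the motif searched on both strands in the 250 bases before the start, GAAA, any 2 bases and GAAA (on the other strand TTTC, any 2 bases and TTTC) for interferon response elements and GAGGAA (reverse complement TTCCTC) for the core bound by PU.1, the factor that specifies macrophages.
Ifit3 (chr19:34583343-34583446, + strand): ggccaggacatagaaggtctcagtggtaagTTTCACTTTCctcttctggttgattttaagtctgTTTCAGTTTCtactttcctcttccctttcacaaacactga
C1qb (chr4:136886201-136886260, − strand): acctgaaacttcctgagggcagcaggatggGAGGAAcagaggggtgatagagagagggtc
The first motif was found for 9 of the 21 listed interferon-stimulated genes that have a promoter in the table (42.9%), against 3.46% of 27025 genes. The second was found for 10 of 19 macrophage genes (52.6%), against 25.9% of all genes. Of the members named above, Ifi35 had no match to the first and Mpeg1 none to the second. A match describes the letters only and does not show binding.

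T cell markers had a positive difference in 13 of 18 members (median 0.44, and 0.17 without PLN NOR array 2), with 0 at an unadjusted p under 0.05 and Cd3e, a T cell receptor subunit, at 1.47 (SE 0.77). B cell markers went the other way, 15 of 19 negative (median −0.74), but with a median of −0.04 without Fat NOR array 1, −1.35 without PLN DIA array 1 and 0.46 under the actin covariate. Cr2, the complement receptor of follicular B cells and follicular dendritic cells, had 1937 to 2415 in PLN NOR and 3790 and 7164 in PLN DIA (−2.62, SE 1.10), and Pax5, the B lineage factor, differed by −3.14 (SE 1.43). Cxcl13, which draws B cells into follicles, had 5694 to 7034 in PLN NOR and 10800 and 16600 in PLN DIA, with 864.8 and 477.3 in Fat NOR and 425.7 and 347.1 in Fat DIA (−1.98, SE 0.90). The other probe set of Cxcl13, about as bright, gave 0.345 in fat and 0.343 in PLNs, a difference of −0.09. The values printed for Cxcl13 thus stand on 1 probe set.

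Germinal centre markers had the largest PLN median of the described lists, 1.78, against 0.25 in fat. Of 9 measured members 6 were negative in the difference (median −1.40), and 3 had an unadjusted p under 0.05. Rgs13, a brake on chemokine receptors in germinal centre B cells, had 55.7 to 170 in PLN NOR and 421.4 and 1367 in PLN DIA, with 8.17 to 41.5 on the fat arrays, a difference of −3.93 (SE 1.48). Gcsam, a signalling adaptor of these cells, differed by −2.52 (SE 0.98) and the DNA repair enzyme Neil1 by −1.72 (SE 0.70). Of the others 3 were positive and 3 negative, and the list median was negative under all 17 settings. Plasma cell and immunoglobulin genes had 6 of 13 members above the median gene (median −0.60). That median changed sign with the actin covariate (0.82) and without Fat DIA array 1 (0.29) or either PLN DIA array. At an unadjusted p under 0.05 (limma) 2 members were positive and 1 negative. Among these genes, Irf4, a factor of activated lymphocytes and also of adipocytes, differed by −3.34 (SE 0.96), with 2351 and 963.6 in Fat NOR and 355.0 and 119.3 in Fat DIA. Sdc1, a proteoglycan of plasma cells and epithelia, differed by 2.44 (SE 0.84) and Tnfrsf17 by 3.30 (SE 1.42).

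In the TNF family, which the study followed up, 14 of 22 ligands and receptors had a negative difference (median −0.74, and −0.21 without PLN DIA array 2) and 0 had an unadjusted p under 0.05. Tnf itself was low in fat, with 79.3 and 31.7 with NOR and 25.6 and 100 with DIA, which overlap. In PLNs it was 232.6 to 382.2 with NOR and 42.7 and 107 with DIA, a change of −1.98 (adjusted p = 0.340), and its difference was 2.01 (SE 1.43). The lymphotoxins that shape lymphoid tissue were on opposite sides, Ltb at 2.10 (SE 1.24) and Lta at −2.28 (SE 1.28). Downstream, Ikbkb, the kinase that frees NF-κB, differed by 3.16 (SE 0.90) and Map3k14, the kinase of the noncanonical branch, by −2.53 (SE 0.89). The NF-κB list had 9 of 15 above the median gene (median 0.72), but −0.02 without PLN DIA array 1 and −0.25 with the Gapdh covariate. Il2rb, a receptor subunit for IL-2 and IL-15, differed by −3.82 (SE 1.04): 299.9 and 343.6 in Fat NOR, 106.3 and 55.2 in Fat DIA, 264.1 to 797.6 in PLN NOR, and 2713 and 896.1 in PLN DIA. The other probe set of Il2rb gave 0.715. In the IL-2 and IL-15 list, 1 member was positive and 1 negative at an unadjusted p under 0.05 (limma). The kinase Jak3 went the other way from Il2rb, with a difference of 3.12 (SE 1.485).

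Genes of growth and division lay on the negative side. All 20 measured cytosolic ribosomal proteins (of 28 listed) were below the median gene in the difference (median −0.99; −0.46 in fat and 0.60 in PLNs), and 16 were below it in fat and above it in PLNs, although 3 had an unadjusted p under 0.05. The median was −0.45 after quantile normalization, −0.50 without PLN DIA array 2, −1.55 without PLN DIA array 1 and 0.45 with the actin covariate. Rpsa, a protein of the small subunit, rose in PLNs (2.05, adjusted p = 0.0218) from 22360 to 31760 with NOR to 118700 and 86430 with DIA and differed by −1.52 (SE 0.59), but by −0.40 after quantile normalization and by 1.24 at its other probe set. Rpl11, which also restrains Mdm2, differed by −1.58 (SE 0.57), and Rpl7 by −1.35 (SE 0.60). Single members ranged from −2.40 to −0.02.

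DNA replication and mitosis genes had a negative difference in 26 of 33 members (median −0.79; −0.23 in fat and 0.55 in PLNs), with 5 negative and 1 positive at an unadjusted p under 0.05 and a negative median under all 17 settings, from −1.43 without PLN DIA array 1 to −0.40 without PLN DIA array 2. Mcm3, a subunit of the replicative helicase, had 1121 to 2579 in PLN NOR and 5086 and 6885 in PLN DIA, with 351.9 and 416.6 in Fat NOR and 220.2 and 378.8 in Fat DIA (−2.32, SE 0.68). The mitotic kinases Cdk1 (−3.35, SE 1.12) and Aurkb (−4.03, SE 1.43) had Fat DIA below Fat NOR without overlap, and in PLNs their groups overlapped.

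Immediate early genes, which respond within minutes to stimuli and to handling, did not move in 1 direction (12 of 26 above, median −0.24, and 0.19 with the actin covariate). Single members moved both ways, with 5 positive and 4 negative at an unadjusted p under 0.05 (limma). Over all genes these shares were 6.10% and 2.52%. The members named next were all negative. Egr1 had 7993 and 8115 in Fat NOR, 640.4 and 1541 in Fat DIA, 2376 to 3725 in PLN NOR, and 2230 and 2367 in PLN DIA. Its difference was −2.80 (SE 0.69, adjusted p = 0.211), with a change of −2.91 in fat and −0.20 in PLNs. Myc, a growth-promoting factor, differed by −1.94 (SE 0.59) and Dusp1, a phosphatase of MAP kinases, by −2.58 (SE 0.84). RNA splicing factors had 23 of 31 above (median 0.66), which became −0.68 with the actin covariate and −0.11 without PLN DIA array 1. The splicing kinases Clk1 and Clk4 differed by 2.91 (SE 0.82) and 2.53 (SE 0.91), and the factor Srsf10 by −1.98 (SE 0.67).

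**Figure D5:**
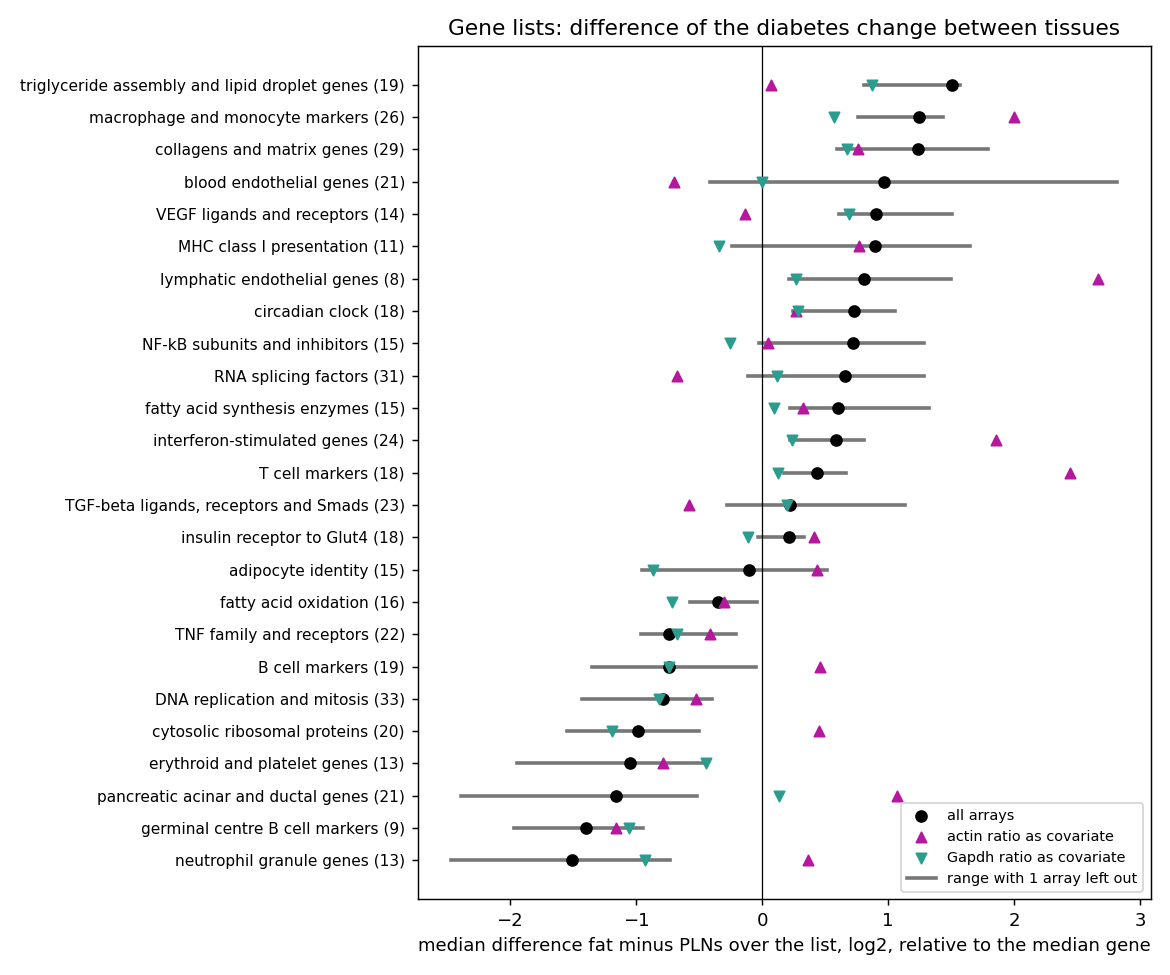
Median difference, fat minus PLNs, over the members (number in brackets) of the same 25 gene lists, in log2 units relative to the median gene. Circles give the fit with all arrays, lines the range when 1 of the 10 arrays is left out, and triangles the fits with a control ratio as covariate; matrix genes stay positive (1.23, from 0.60 to 1.79), while blood endothelial genes span 0 (−0.41 to 2.82).

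Markers of cells that neither tissue is named for are given next, and 0 of them were called. Erythroid and platelet genes were below the median gene in fat in 13 of 13 members (median −1.06), with a summed signal of 13560 and 15360 in Fat NOR, 5089 and 5735 in Fat DIA, 2837 to 4148 in PLN NOR, and 4279 and 4740 in PLN DIA. Their difference had a median of −1.04 (−0.47 without PLN DIA array 1) with 12 of 13 negative, among them the red cell anion exchanger Slc4a1 (−4.93, SE 1.21), the platelet chemokine Ppbp (−4.66, SE 1.76) and the red cell enzyme Bpgm (−2.29, SE 0.83). Neutrophil granule genes were negative in 12 of 13 (median −1.504), but −0.73 without PLN DIA array 1 and 0.37 with the actin covariate, with 0 at an unadjusted p under 0.05 and Ngp, a granule protein, at −2.29 (SE 1.37). Their summed signal was 1732 to 3181 in Fat NOR, 1773 to 1927 in Fat DIA, 1134 to 2461 in PLN NOR and 1625 to 6783 in PLN DIA.

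Pancreatic acinar and ductal genes were negative in 17 of 21 (median −1.16), with a summed signal of 2510 and 20200 in PLN DIA against 1577 to 4560 in PLN NOR. The higher value belongs to PLN DIA array 1, on which the protease precursor Ctrb1 reached 3485 against 509.9 on PLN DIA array 2 and 14.0 to 77.5 in PLN NOR (−6.92, SE 2.32). Without that array the list median was −0.52, and it was 1.07 and 0.13 with the actin and the Gapdh covariate. Liver and urinary protein genes had 6 of 8 positive (median 1.83), and −0.41 without PLN DIA array 2. Mup10, a major urinary protein, fell in PLNs (−7.09, adjusted p = 0.0130) from 1229 to 8805 with NOR to 33.2 and 18.2 with DIA. The part of these cells in the differences of other genes was not tested.

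Some further lists are given by count only. Nerve and Schwann cell genes (7 of 9 positive, 0.96), IL-1 and IL-6 genes (11 of 19, 0.42), dendritic cell markers (7 of 11, 0.29) and unfolded protein response genes (15 of 25, 0.20) were on the positive side. Islet hormone and granule genes (5 of 16, −0.91), epithelial genes (4 of 15, −0.90, but 0.89 over members above the 40th percentile of signal), regulatory T cell genes (4 of 12, −0.70), glucocorticoid targets (7 of 17, −0.48), IL-2 and IL-15 genes (3 of 12, −0.47), chemokines (9 of 25, −0.34), antioxidant enzymes (7 of 21, −0.29) and proteasome subunits (10 of 29, −0.28) were on the negative side. These counts say how many members were above the median gene. Of these lists the nerve, dendritic cell and regulatory T cell medians kept their sign under all 17 settings, and each of the others changed sign under at least 1.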

How the data were processed

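Total RNA was amplified, labelled as biotinylated cRNA and hybridized to 1-colour Mouse 430 2.0 arrays, 1 sample per array. The authors deposited linear signal intensity per probe set, made with MAS5 per the submitters' processing notes (version not given), with nearly equal trimmed means (496.2 to 497.5 here), so changes are relative to the rest of an array. The study's methods name RMA, but the deposited values are linear with equal trimmed means and were used as they are. Its rank products give no interaction and were not used. Values under 1 were set to 1 (230 values), log2 was taken, and 64 control probe sets were left out of the tests. The fit used limma 3.58.1 in R 4.3.3 with 1 mean for each of 7 groups over 19 arrays, a variance trend and Benjamini-Hochberg adjustment over 45037 probe sets, with 12 residual degrees of freedom. Named genes were the 10 of each direction with the smallest p among probe sets of 1 gene with at least the median mean signal (called genes were fewer than 5 a direction), up to 3 with the smallest p of each list and 6 genes that the study or an earlier account names. Not every gene chosen from lists is named. Left out of the Results and of the counts of named probe sets are, for example, Map2k1 (−2.46), Pparg (−2.84), Osmr (2.945) and Mapk14 (1.70). In lists a gene was represented by its probe set of highest mean. Names came from the platform table, updated by Entrez ID (34741 symbols). The members and lists were chosen with earlier results of these data known. Scripts were tested on simulated data. Alternatives covered normalization, floor, filters, variance, blocks, control ratios and left-out arrays.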

Additional observations from a re-analysis of the deposited data

Results flagged for a closer look

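The changes with diabetes differed between the tissues by the test of the difference itself for Hoxa9 (5.63) and Rfng (5.44). Among the log2 signals of the 97 named probe sets in the PLN NOR group, the only group of 4 arrays, 4 had an array whose gap to its neighbour was a large share of the group's range, and chance gives about 1 in 20. The share was 0.874 for Insr (PLN NOR array 2, signal 527.7), 0.855 for Slc2a4 (array 1, 202.8), 0.942 for Cdk1 (array 1, 710.8) and 0.891 for Cxcl13 (array 4, 7034).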

How the results depend on the processing

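The positive and negative counts of calls in the difference (2 and 0), the calls in PLNs (239) and those in fat (0) moved with the processing. They were 8, 2, 646 and 0 in a fit of the 10 arrays only, 8, 1, 57 and 25 with 1 variance for each tissue, 4, 0, 577 and 5 after quantile normalization, 1, 0, 196 and 0 after median centring, 0, 0, 261 and 0 with the floor at the 20th percentile, 6, 0, 362 and 0 with log2 of the value plus 32, 2, 0, 235 and 0 with the 40th percentile filter, 2, 0, 123 and 1 with the 60th, 0, 0, 97 and 0 without the variance trend, 2, 0, 88 and 1 with 1 probe set per gene, 0, 0, 23 and 0 with the actin covariate, and 20, 2, 174 and 1 with the Gapdh covariate. At the study's thresholds they were 2543, 1454, 5620 and 2403. With 1 array left out they ranged from 0 to 310, 0 to 13, 36 to 1116 and 0 to 66. The cause of these shifts was not tested. Array numbers are shared between groups, but the labels tie them to nothing. Deviations of same-numbered arrays from their group means correlated positively in every pair of groups, though weakly in most (r from 0.05 to 0.28). The highest value was between PLN NOR and PLN DIA. Between groups of 2 arrays, numbers 1 and 2 give the same r by construction. With the replicate number as a block the counts were 1, 0, 112 and 0, and as a random replicate block 2, 0, 239 and 0. Of 97 named probe sets, 80 changed sign under no setting. With the actin covariate the difference was −0.49 for Insig1, −0.11 for Gpat3, 0.69 for Echs1, 0.18 for Txnip, −0.082 for Foxo1, −0.71 for Insr, −0.17 for Per2, 0.23 for Rpl11, 0.33 for Rpl7, −0.96 for Clk1, −0.78 for Clk4, −0.67 for Ikbkb, −0.25 for Vegfa, −0.019 for Nlrc5, 0.36 for Pax5 and −1.11 for Tek. With 1 array left out the Ighm probe set of highest mean ranged from −0.479 (without Fat NOR array 1) to 4.728 (without Fat NOR array 2), and was −0.011 without Fat DIA array 2. Of 57 list medians, 16 kept 1 sign under all 17 settings, and 28 changed sign with the actin covariate, 16 with the Gapdh covariate and 30 with an array left out. The median transcript of the difference, 0.095 here, was −0.015 after quantile normalization and 0.152 after median centring, and changes are given relative to it. Precision is limited by 2 arrays in 3 of the 4 groups.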
